A study of Mus musculus with 35 samples.

Results

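Vascular endothelial genes were followed through sorted CD8+ T cells of the mouse and the whole organs those cells came from. The 10 genes were Pecam1, Cdh5, Kdr, Vwf, Cldn5, Tie1, Ptprb, Egfl7, Emcn and Car4, chosen by name, and their members were the probes whose accession belongs to one of them. They made up 10 of the 20886 named genes on the array. Kdr, Ptprb and Car4 had 2 probes each and the other genes had 1.

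The animals were female C57Bl/6 mice, wild type, healthy and 8 to 16 weeks old, for which the labels name no transgene and no treatment. Resident memory T cells (Trm) of liver (5 arrays), lung (6 arrays) and small intestine (6 arrays) were taken from a 40% and 80% Percoll gradient with magnetic beads, 2 rounds in all: the first against CD8b, the next against CD103, an integrin chain of tissue-resident T cells. Effector memory T cells (Tem, 6 arrays) were CD8b+ cells from the blood of the same animals after depletion of CD62L+ cells. Whole liver, lung, intestine and blood mononuclear cells (PBMC), with 3 arrays each, went through no cell isolation, and the study used them to see how much other tissue remained in the sorted cells. The labels do not tie arrays to animals, so the p-values measure only the spread between these samples, which may be technical. In RNA of a whole preparation, fewer cells of a type and less RNA per cell cannot be told apart.

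Endothelial cells line blood vessels as a single layer. VE-cadherin and claudin-5 hold them together, receptors such as VEGF receptor 2 and the Tie receptors set their growth and quiescence, and von Willebrand factor stored in them helps platelets adhere to a damaged wall. In the lung they form the dense capillary bed around the air sacs, in the liver the open sinusoids, and in the intestine the capillaries of the villi.

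Levels are log2 intensities minus the 75th percentile of the same array, so that 0 stands for that percentile and a step of 1 for a doubling; unless said otherwise they are on the scale shared by all 35 arrays. A probe was above background on an array where the scanner software marked it so, and a gene was called where limma's adjusted p was under 0.05. Among sorted arrays, 12.2% to 35.5% of probes were above background, and 4 arrays stood apart from their groups: liver Trm 3 (12.2%), Tem 3 (35.5%), whole liver 2 (64.7%) and PBMC 1 (7.80%). Each of these 4 also had the lowest median rank correlation with the other arrays of its group. Intestine Trm 5 was not among them, though 35.5% of its probes were above background, against 21.8% to 26.7% on the other intestine Trm arrays. Of 14 T cell genes, 12 to 14 were above background on each sorted array. Sorted cells lay on 6 slides scanned on 1 day and whole organs on 3 other slides scanned on another day, so slide and scan day cannot be told apart from the difference between sorted cells and whole organs.

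The data showed 3 patterns. Whole lung had the highest mean of the whole samples for Cdh5, Cldn5, Tie1, Ptprb, Vwf and Egfl7. Lung Trm lay far below whole lung, with 6 of the 8 genes tested called lower, where 25.8% of all 10636 genes tested were called lower. Tie1, among these 6, passed the filter through whole lung alone, which favoured its call. Liver Trm and intestine Trm had none of these 8 genes called lower than their own organ (20.1% to 23.7% of all genes tested were). Against blood Tem they had 5 and 4 of 7 genes called higher, where 15.0% and 8.10% of all 8622 genes tested were. These last counts fell to 3 in liver without the 4 arrays that stood apart, and to 2 in intestine without intestine Trm 2, 3 or 4 or Tem 1, 3, 4 or 5. The liver count includes Cdh5, which was not above background on any array of liver Trm or Tem.

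**Figure D1:**
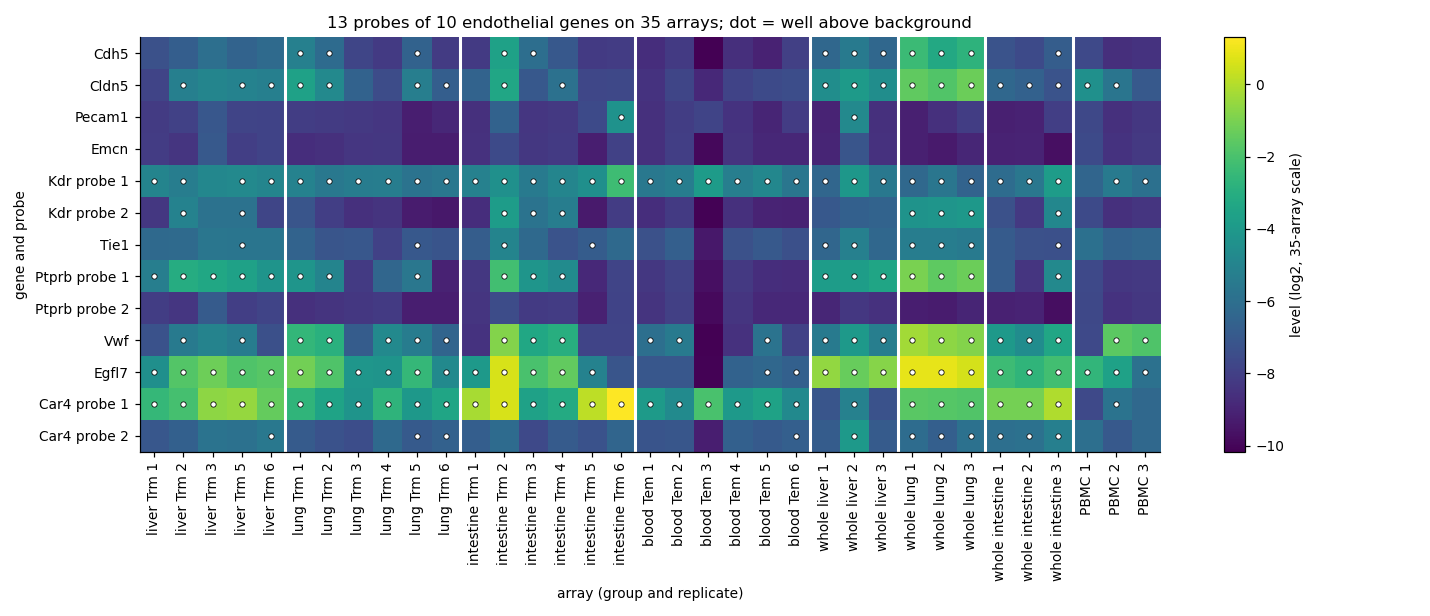
Heat map of the level (log2, 35-array scale) of the 13 probes of 10 endothelial genes (rows) on the 35 arrays (columns, by group and replicate), with a dot where the probe was above background. The 3 whole lung columns are bright for Cdh5, Cldn5, Ptprb probe 1, Vwf and Egfl7, whereas Emcn has no dot on any array and Pecam1 has 2.

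Of the junction and surface genes, Cdh5 encodes VE-cadherin, the adhesion molecule of endothelial adherens junctions. In whole lung its level was -2.36, -3.24 and -2.74, in whole liver -6.35, -5.49 and -6.32, and in whole intestine -7.25, -7.59 and -6.79. All 3 whole lung arrays lay above all others of the series. Liver Trm held Cdh5 at -7.34, -6.74, -5.98, -6.53 and -6.18, not above background on any of the 5 arrays. The lowest, median and highest values were -8.20, -7.18 and -5.19 in lung Trm, with 3 of 6 arrays above background, -8.23, -7.56 and -3.62 in intestine Trm, with 2 of 6, and -10.14, -8.63 and -8.02 in Tem, with 0 of 6. The single intestine array at -3.62 reached almost the level of whole lung, while the Tem arrays lay at the bottom. PBMC, at -7.65, -8.63 and -8.48, were not above background either. By group mean the order ran from whole lung (-2.78 ± 0.44, SD, n = 3) to whole liver (-6.05 ± 0.48), liver Trm (-6.55 ± 0.53, n = 5), intestine Trm (-6.87 ± 1.81, n = 6), lung Trm (-7.01 ± 1.23, n = 6), whole intestine (-7.21 ± 0.40, n = 3), PBMC (-8.25 ± 0.53, n = 3) and Tem (-8.78 ± 0.76, n = 6). Only the steps below whole lung and below whole intestine were clear of the spread of both neighbours. The latter was clear by little, and whole intestine against PBMC was not called (limma, adjusted p = 0.288).

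Cldn5 encodes claudin-5, the tight junction protein of endothelium. Whole lung gave -1.50, -1.81 and -1.28, whole liver -4.55, -3.91 and -4.56, whole intestine -6.34, -6.62 and -7.25, and PBMC -4.41, -5.71 and -6.95. Whole lung was again on its own at the top, and whole liver lay above whole intestine with no overlap. Liver Trm values were -7.81, -5.19, -4.94, -5.07 and -5.19, so that array 1 lay apart below the other 4. Cldn5 had its lowest, median and highest level at -7.48, -5.92 and -3.59 in lung Trm, at -7.74, -6.76 and -3.37 in intestine Trm and at -8.86, -7.80 and -7.44 in Tem, where no array was above background.

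Pecam1 encodes CD31, an adhesion molecule of endothelium that platelets and leukocytes also carry, and Emcn encodes the sialomucin endomucin of venous and capillary endothelium. Neither passed the filter, which asked for 3 or more arrays above background within a group. The Pecam1 probe was above background only on intestine Trm 6 (-4.33) and whole liver 2 (-4.76), and in whole lung it lay at -9.17, -8.60 and -8.08. Emcn was not above background on any of the 35 arrays, whole lung included. These 2 probes therefore gave no usable level in any group, in organs where the other endothelial genes were bright, and the genes themselves were not measured here.

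Among the receptors, Kdr encodes VEGF receptor 2, and its 2 probes disagreed. Probe 1, the brighter, was above background on 33 of 35 arrays, all Tem arrays among them, and its group means spanned only -6.15 ± 0.45 (SD, n = 3) in whole lung to -4.43 ± 1.13 (n = 6) in intestine Trm. It was called in no comparison. Probe 2 gave -4.27, -4.20 and -4.05 in whole lung and was not above background in any Tem, lung Trm, whole liver or PBMC array. Its values in liver Trm were -8.29, -5.07, -5.84, -5.86 and -7.77, and in intestine Trm they ran from -9.33 through a median of -6.95 to -3.84. Probe 2 thus had the same ordering as Cdh5 at the top, with whole lung above all but 1 intestine array, and probe 1 did not. With probe 2 in place of probe 1, Kdr was lower in lung Trm than in whole lung by 4.30 on the log2 scale (limma, adjusted p = 7.24e-05) and higher in liver Trm than in Tem by 2.77 (adjusted p = 0.0125); this exchange was chosen after the data were seen.

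**Figure D2:**
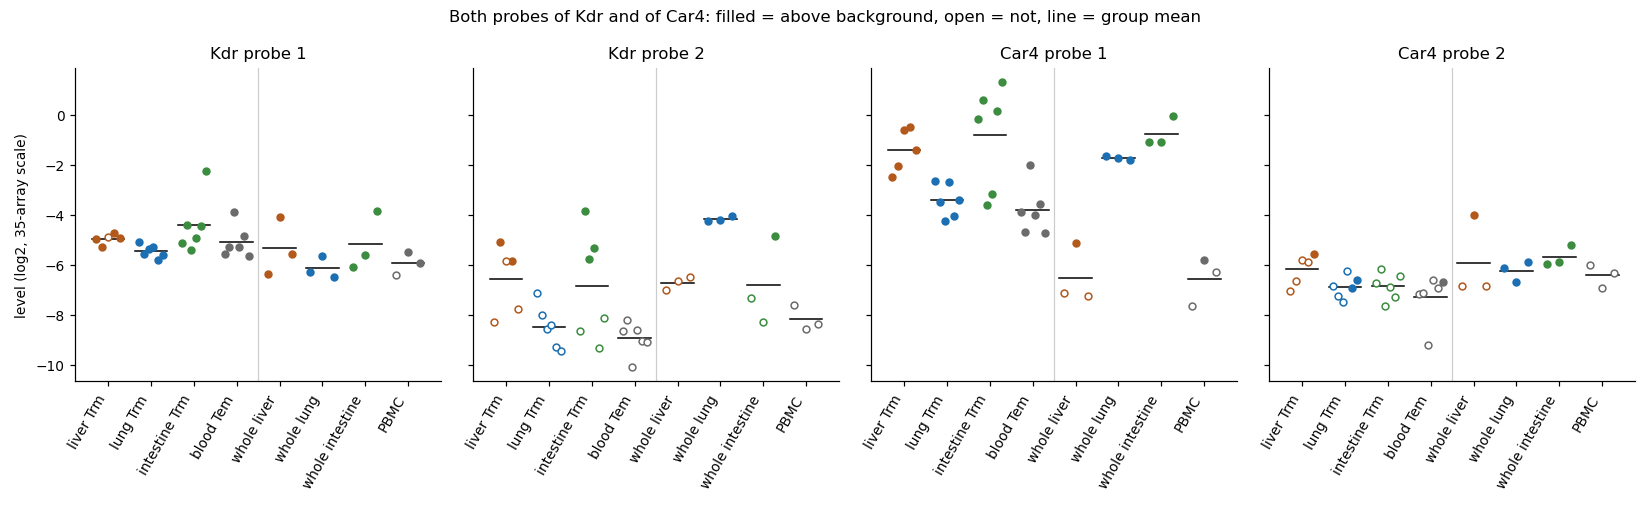
Level (log2, 35-array scale) on every array of both probes of Kdr and both of Car4, by group; filled points are above background, open points are not, and lines are group means. Kdr probe 2 has its highest group mean in whole lung and probe 1 its lowest, and Car4 probe 2 stays between -9.19 and -4.02 where probe 1 reaches 1.31.

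Tie1 encodes a receptor that partners the angiopoietin receptor Tie2. It was above background on 10 arrays. Whole lung gave -5.30, -5.29 and -5.42, whole liver -6.39, -5.17 and -6.35, whole intestine -6.89, -7.34 and -7.36, and PBMC -5.93, -6.54 and -6.39. Whole lung was highest by mean, and whole liver 2 lay slightly above it. The lowest, median and highest Tie1 levels were -7.22, -6.52 and -5.00 in intestine Trm, with 2 of 6 arrays above background. They were -6.23, -5.72 and -5.67 in liver Trm (1 of 5) and -7.94, -7.10 and -6.51 in lung Trm (1 of 6). In Tem they were -9.45, -7.31 and -6.70 (0 of 6). The highest intestine Trm array thus lay above whole lung too. The gene passed the filter through whole lung alone and only in the fit of all arrays, so its calls against whole lung were favoured by the filter. Ptprb encodes VE-PTP, the phosphatase that acts on Tie2 and VE-cadherin. Its brighter probe gave -1.0, -1.52 and -1.27 in whole lung, -3.82, -3.76 and -3.41 in whole liver, -6.81, -8.40 and -4.75 in whole intestine and -7.63, -8.32 and -8.26 in PBMC. These 4 whole samples fell in the order lung, liver, intestine and PBMC by mean, without overlap between lung and liver or between liver and intestine. Ptprb was above background on all liver Trm arrays, at -5.28, -3.05, -3.32, -3.60 and -4.24. In lung Trm it ran from -9.08 through -6.01 to -4.20, in intestine Trm from -8.86 through -6.22 to -2.17, and in Tem from -9.71 through -8.49 to -7.90 with no array above background. All 5 liver Trm arrays lay above all 6 Tem arrays. The second Ptprb probe was not above background on any array.

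Of the secreted products, Vwf encodes von Willebrand factor, which platelets and megakaryocytes carry as well as endothelium. Whole lung gave -0.30, -0.65 and -0.81, whole intestine -4.00, -4.61 and -3.36, and whole liver -5.42, -3.98 and -5.28. PBMC 2 and 3, at -1.60 and -1.87, came close to whole lung, and PBMC 1 was at -7.63. On PBMC 2 and 3, 13 of 14 platelet and megakaryocyte genes were above background, against 4 on PBMC 1 and 4 to 7 on Tem arrays; the part of platelets in the Vwf level was not tested. Tem arrays 1, 2 and 5 held Vwf above background, at -5.97, -5.46 and -5.78, and the other 3 did not. In lung Trm the lowest, median and highest level was -6.84, -5.05 and -2.55, and in intestine Trm -8.48, -5.57 and -0.80, the latter on array 2 within the range of whole lung. Liver Trm gave -7.27, -5.50, -5.03, -5.33 and -7.35.

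Egfl7 encodes a matrix protein that endothelial cells secrete around growing vessels. It was above background on 30 arrays, in every whole organ, PBMC, lung Trm and liver Trm array and in 5 of 6 intestine Trm arrays. Whole lung gave 0.86, 0.87 and 0.55, whole liver -0.56, -1.34 and -0.79, whole intestine -2.30, -2.65 and -2.17, and PBMC -2.61, -3.62 and -5.87. Liver Trm values were -4.45, -1.76, -1.21, -1.87 and -1.68. In Tem the lowest, median and highest level was -10.11, -6.85 and -6.33 with 2 of 6 arrays above background, below all PBMC arrays and all lung and liver Trm arrays. Lung Trm ran from -4.70 through -3.33 to -1.13 and intestine Trm from -7.12 through -2.97 to 0.60.

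**Figure D3:**
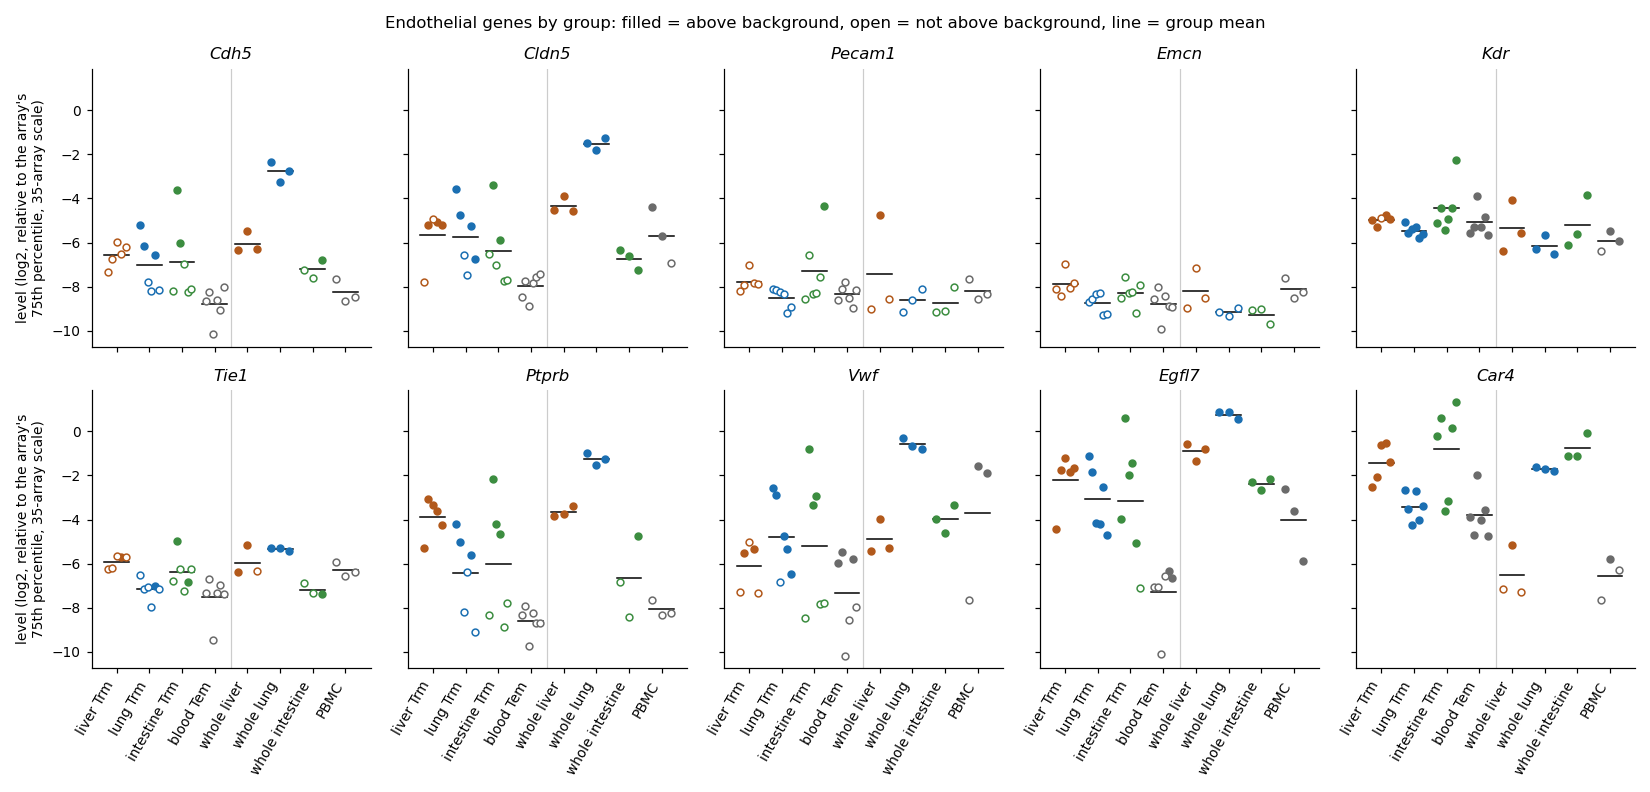
Level (log2, 35-array scale) of the brighter probe of each of the 10 endothelial genes on every array, by group; filled points are above background, open points are not, and lines are group means. Whole lung is the highest group by mean for Cdh5, Cldn5, Tie1, Ptprb, Vwf and Egfl7. Car4 departs from that pattern, with some intestine and liver Trm arrays above whole lung and others below it.

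Car4 encodes carbonic anhydrase 4, an enzyme on the outer membrane of capillary endothelium and of some epithelia. By its brighter probe it was above background on all 23 sorted arrays, blood Tem included, unlike any other of the 10 genes. Whole lung gave -1.64, -1.73 and -1.81, whole intestine -1.11, -1.10 and -0.07, whole liver -7.13, -5.15 and -7.26, and PBMC -7.65, -5.80 and -6.29. Liver Trm values were -2.51, -2.06, -0.62, -0.51 and -1.41, all above whole liver. In intestine Trm it ran from -3.62 through -0.02 to 1.31, in lung Trm from -4.24 through -3.46 to -2.65, and in Tem from -4.73 through -3.95 to -2.0. Whole lung and whole intestine lay within the range of intestine Trm. By mean, lung Trm lay between Tem and the other Trm groups, though the lowest intestine Trm level fell within the lung Trm range. The second Car4 probe never rose above -4.02 and was not called in any comparison with or between whole organs or PBMC (limma, smallest adjusted p = 0.0881, for intestine Trm against whole intestine). It was not kept in the fit of sorted arrays, so that the Car4 differences below rest on 1 probe.

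Promoter sequence from RefSeq (GRCm38.p6) was at hand for 6 of the 10 genes. It is shown, as the 250 bases before a start site, for Tie1, Egfl7 and Cldn5, which were called lower together in lung Trm than in whole lung. Capitals mark CNGGAAG or its reverse complement CTTCCNG, a motif of the kind that ETS factors of endothelium bind. Both strands were searched, and 26.6% of all 32851 promoters hold it within the same length.
Tie1, chr4:118489850-118490099, minus strand: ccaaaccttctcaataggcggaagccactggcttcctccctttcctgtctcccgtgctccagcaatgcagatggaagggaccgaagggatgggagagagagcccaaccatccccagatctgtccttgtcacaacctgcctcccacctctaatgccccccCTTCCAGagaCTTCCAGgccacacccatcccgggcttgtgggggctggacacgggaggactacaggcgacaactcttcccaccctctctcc
Egfl7, the second of 3 listed start sites, chr2:26583615-26583864, plus strand: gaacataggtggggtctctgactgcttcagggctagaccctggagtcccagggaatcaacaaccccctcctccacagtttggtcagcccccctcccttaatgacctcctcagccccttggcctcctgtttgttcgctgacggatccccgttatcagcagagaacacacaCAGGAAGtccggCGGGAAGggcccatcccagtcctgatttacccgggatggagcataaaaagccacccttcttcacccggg
Cldn5, chr16:18776597-18776846, plus strand: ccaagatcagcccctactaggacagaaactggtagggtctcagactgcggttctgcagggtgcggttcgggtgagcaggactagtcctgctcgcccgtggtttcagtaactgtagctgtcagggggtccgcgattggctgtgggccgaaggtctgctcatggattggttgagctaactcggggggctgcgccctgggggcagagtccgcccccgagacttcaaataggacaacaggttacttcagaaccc
Tie1 and the shown Egfl7 start hold 2 matches each, as 4.8% of all promoters do with 2 or more, and Cldn5 holds none. Of the other stretches, the first Egfl7 start holds 2, Emcn and Car4 hold 1 each, and Kdr and the third Egfl7 start hold none. A match describes letters only and says nothing of binding.

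Against blood Tem, liver Trm had 5 of 7 genes called higher and none lower (limma, fitted over the 23 sorted arrays; differences of sorted groups are on the scale of that fit). The junction genes Cdh5 and Cldn5, the phosphatase Ptprb, the matrix protein Egfl7 and the enzyme Car4 were higher, and Kdr (0.52 ± 0.41) and Vwf (1.61 ± 1.25) were not called. Egfl7 differed by 5.50 ± 1.09 (SE; adjusted p = 0.00150), with 2 of 6 Tem arrays above background. Ptprb differed by 5.09 ± 1.02 (adjusted p = 0.00156), at least 9.93-fold since no Tem array was above background. Cldn5 was higher by 2.75 ± 0.77 (adjusted p = 0.0109; at least 2.96-fold), Car4 by 2.78 ± 0.74 (adjusted p = 0.00849) and Cdh5 by 2.63 ± 0.74 (adjusted p = 0.0112). For each of these 5 genes the liver value was above the Tem value on all 5 slides that held both. Cdh5 was not above background on any array of either group, so no fold is given, and the 19952 probes never above background on a sorted array had a median difference of 1.33 in the same direction. Without the 4 arrays that stood apart, the count fell to 3, and Cdh5 (adjusted p = 0.0691) and Cldn5 (adjusted p = 0.0662) were no longer called.

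The sorted liver cells also carried RNA of other liver cells, in values set here beside the endothelial genes. Of 15 hepatocyte genes, 12 to 14 were above background on each liver Trm array and 0 to 2 on each Tem array, and their summed level (in multiples of the array's 75th percentile) was 3.05 to 23.5 against 0.0523 to 0.0864. Of 10 genes of liver sinusoidal endothelium, the scavenger receptors Stab1 and Stab2 among them, 2 to 8 were above background on each liver Trm array and none on any Tem array, with a summed level of 0.109 to 0.898 against at most 0.0201. All 4 sinusoidal genes tested were called higher in liver Trm than in Tem, where 15.0% of all genes tested were. Among them were the scavenger receptor gene Stab1 and the sinusoidal growth factor gene Bmp2, at 4.47 ± 0.67 and 4.83 ± 0.86 (SE). These 4 genes passed the filter through liver Trm alone, which favoured their calls. Liver Trm 1, which was lowest of its group for Egfl7, Ptprb, Cldn5, Cdh5 and Kdr probe 2, also had the lowest sinusoidal sum, 0.109. The part of these cells in the endothelial differences was not tested.

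Intestine Trm had 4 of 7 genes called higher than Tem, and none lower. Egfl7 was higher by 4.32 ± 1.04 (SE, adjusted p = 0.00612) and Car4 by 3.19 ± 0.71 (adjusted p = 0.00342), and both kept their call under all alternatives tried. Ptprb at 2.79 ± 0.97 (adjusted p = 0.0497) and Cdh5 at 2.11 ± 0.71 (adjusted p = 0.0427) lay just inside the threshold and lost the call in 17 and 14 of 21 alternatives. No Tem array was above background for either gene, and 3 and 2 of the 6 intestine arrays were. Ptprb was therefore at least 2.02-fold higher, and the lower bound for Cdh5 was smaller still. Probes never above background on a sorted array had a median difference of 0.70 in the same direction. Leaving out intestine Trm 2, 3 or 4, or Tem 1, 3, 4 or 5, took the count from 4 to 2.

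The endothelial genes were uneven among the 6 intestine arrays. Ptprb, Vwf and Kdr probe 2 were above background on intestine Trm 2, 3 and 4 and on none of arrays 1, 5 and 6. On array 2, Vwf stood at -0.80, Egfl7 at 0.60, Ptprb at -2.17 and Cdh5 at -3.62, each the highest of its group. Arrays 5 and 6 held the 2 lowest Egfl7 levels, -5.08 and -7.12. Pericyte and smooth muscle genes, markers of the cells that wrap vessels, had summed levels of 3.00, 0.686 and 1.43 on arrays 2, 3 and 4, and between 0.0942 and 0.156 on arrays 1, 5 and 6. The 2 sets of arrays did not overlap for these wall cells either, and the part of the vessel wall in the intestine calls was not tested. Car4 ran differently, with -0.19, 0.59, 0.15 and 1.31 on arrays 1, 2, 5 and 6 and its lowest levels, -3.62 and -3.17, on arrays 3 and 4.

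**Figure D4:**
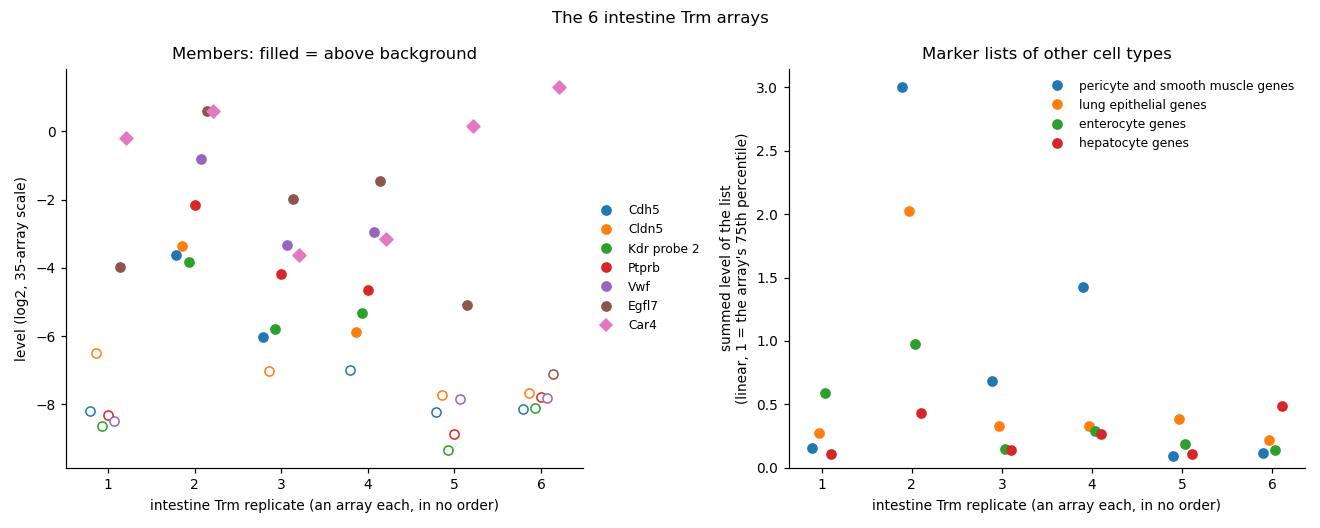
The 6 intestine Trm arrays. Left, level (log2, 35-array scale) of 7 endothelial probes, filled where above background and a diamond for Car4; right, summed linear level of 4 marker lists of other cell types. Arrays 2, 3 and 4 have filled points for Vwf, Ptprb and Kdr probe 2 and the 3 highest pericyte and smooth muscle sums, and Car4 is lowest on arrays 3 and 4.

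Lung Trm had 1 of 7 genes called higher than Tem, where 2.10% of all genes tested were. This was Egfl7, at 4.37 ± 1.04 (SE, adjusted p = 0.0200), higher on all 6 shared slides. The call was lost without lung Trm 1 (adjusted p = 0.0547), without lung Trm 2 (adjusted p = 0.0551), with the normexp background correction (adjusted p = 0.0505) and without the arrays that stood apart (adjusted p = 0.0506). Cldn5 at 2.43 ± 0.74 (adjusted p = 0.0807), Vwf at 2.68 ± 1.19, Ptprb at 2.35 ± 0.97 and Cdh5 at 1.95 ± 0.71 were not called; without lung Trm 4 the count was 2. Lung Trm 1, 2 and 5 were the arrays with Cdh5 and Ptprb above background. Of 14 lung epithelial genes, 6 to 10 were above background per lung Trm array, with sums of 0.187 to 9.07, highest on arrays 1 and 2. On Tem arrays 2 to 7 were, with sums of 0.188 to 0.423, so the 2 groups overlapped. The part of lung epithelial RNA in these values was not tested.

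**Figure D5:**
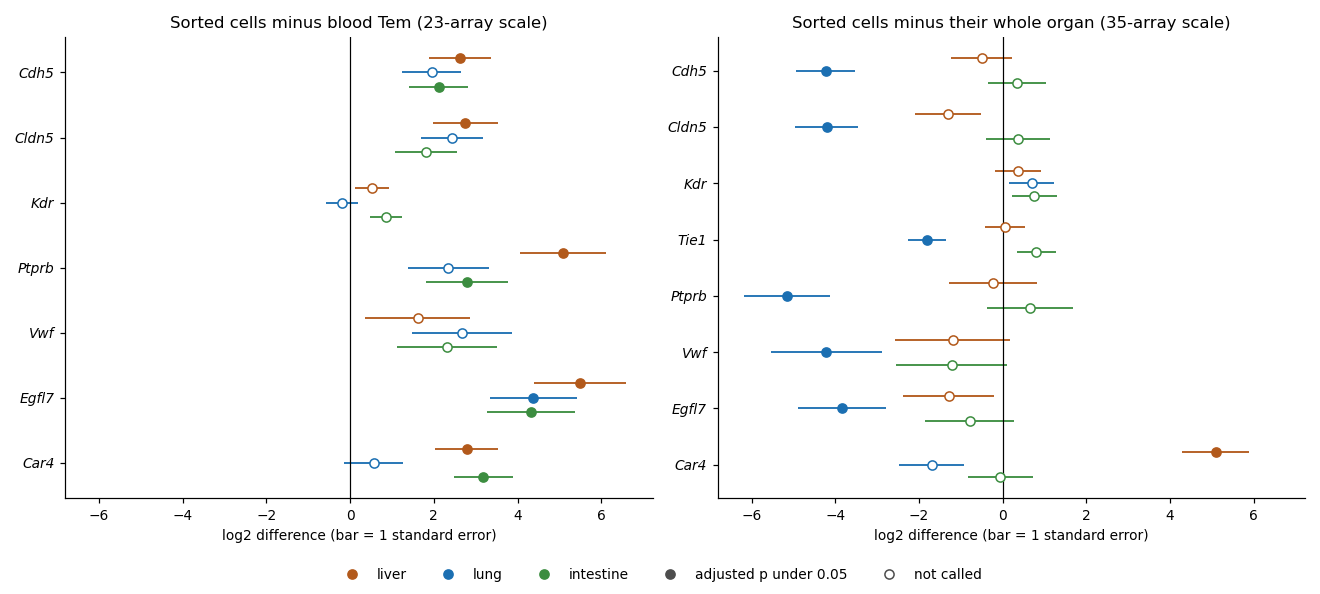
Fitted log2 differences with 1 standard error for each endothelial gene that passed the filter: left, Trm of liver, lung and intestine minus blood Tem (23-array scale, 7 genes); right, each Trm group minus its whole organ (35-array scale, 8 genes). Filled points have a limma adjusted p under 0.05; on the left all filled points lie above 0, and on the right the filled points are 6 lung genes below 0 and liver Car4 above it.

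Among the Trm groups, Car4 alone was called. It was lower in lung Trm than in intestine Trm by 2.62 ± 0.71 (SE, adjusted p = 0.0213), 1 of 7 genes where 9.52% of all genes tested were called in either direction. It was also lower in lung Trm than in liver Trm by 2.22 ± 0.74 (adjusted p = 0.0447), again 1 of 7, where 17.8% were. Both calls were fragile: the first was lost without lung Trm 3 (adjusted p = 0.0561), intestine Trm 1 (0.0504) or intestine Trm 6 (0.0579), and the second without liver Trm 3, 5 or 6 or lung Trm 1, 2, 3, 4 or 6 (adjusted p up to 0.119) and with a replicate block (adjusted p = 0.0843). Between liver and intestine Trm, 0 of 7 genes were called, where 11.7% of all genes tested were, and 1 gene was without intestine Trm 2.

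Between whole organs, lung was called higher for several genes, though not for Kdr by probe 1, which had its lowest mean in whole lung, or for Car4 against intestine, where it differed by -0.97 ± 0.89 (limma, adjusted p = 0.505) and all 3 intestine arrays lay above all 3 lung arrays. With Kdr probe 2, exchanged after the data were seen, whole lung was higher than PBMC by 4.01 (limma, adjusted p = 0.00175) and than whole intestine by 2.63 (adjusted p = 0.0421). The probe 2 difference from whole liver, 2.55, missed the threshold (adjusted p = 0.0530). Against whole liver, 4 of 8 genes were called higher and none lower, where 12.1% of all genes tested were called higher. Car4 differed by 4.78 ± 0.89 (SE, adjusted p = 8.65e-05), Vwf by 4.31 ± 1.53 (adjusted p = 0.0382), Cdh5 by 3.27 ± 0.81 (adjusted p = 0.00259) and Cldn5 by 2.81 ± 0.88 (adjusted p = 0.0170). Vwf lost its call when any of the 6 arrays was left out, and Cldn5 without whole liver 3 or whole lung 3, so that the count fell to 2 without either of those. Against whole intestine, Cdh5, Cldn5, Tie1 and Ptprb were higher by 1.86 to 5.39, 4 of 8 genes where 12.1% of all genes tested were called higher. Tie1 among them passed the filter through whole lung alone. Against PBMC, 5 of 8 were called higher, where 30.1% were; Ptprb was at least 26.6-fold and Cdh5 at least 9.30-fold higher, since no PBMC array was above background for them. Whole liver had 3 of 8 genes called higher than PBMC (27.0% of all genes tested), and 2 of these, Cdh5 and Egfl7, lost the call in 12 and 9 of 15 alternatives; the count was 1 without any single whole liver array or without PBMC 2 or 3. Whole intestine had 1, Car4 (37.3%). Between intestine and liver as whole organs, Car4 was higher in intestine by 5.75 ± 0.89 (adjusted p = 4.18e-06) and Cldn5 lower by 2.40 ± 0.88 (adjusted p = 0.0372), 2 of 8 genes where 30.5% were called in either direction; the Cldn5 call was lost in 9 of 15 alternatives, among them without any single whole liver array or without whole intestine 2 or 3.

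Lung Trm were then set against whole lung. All 6 lung Trm arrays lay below all 3 whole lung arrays for Cdh5, Cldn5, Ptprb, Vwf, Tie1 and Egfl7. Ptprb fell by 5.15 ± 1.02 on the log2 scale (limma, adjusted p = 8.86e-05), and the differences were -4.23 ± 0.70 for Cdh5 (adjusted p = 8.64e-06), -4.21 ± 0.76 for Cldn5 (adjusted p = 2.70e-05) and -4.22 ± 1.33 for Vwf (adjusted p = 0.00980). Egfl7 differed by -3.85 ± 1.05 (adjusted p = 0.00318) and Tie1 by -1.81 ± 0.46 (adjusted p = 0.00171). Among the 6 lung Trm arrays, Egfl7 was above background on 6, Vwf on 5, Cldn5 on 4, Cdh5 and Ptprb on 3 and Tie1 on 1, so that the sizes for the last 3 genes lean on values at background. The 6 calls held in all 17 alternatives tried for each. That of Tie1 was favoured by the filter, which it passed through whole lung alone. Car4 at -1.69 ± 0.77 (adjusted p = 0.0790) and Kdr at 0.69 ± 0.54 were not called. The median of the 8 genes tested was -4.03 against 0.09 for all genes tested, and probes never above background on any array had a median difference of 0.40.

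Other genes came from lists chosen by endothelial function, which hold ligands of endothelial receptors as well. These were mostly lower in lung Trm than in whole lung, with 4 exceptions called higher. Of 12 growth factor receptors and ligands tested, 9 were lower and none higher, with the angiopoietin Angpt1 at -5.29 ± 0.54, the receptor component Ramp2 at -5.25 ± 1.01 and the VEGF receptor Flt1 at -4.38 ± 0.97. Of 12 junction and adhesion genes, 9 were lower and none higher, led by Esam at -6.11 ± 1.25 and Vcam1 at -5.89 ± 0.77. Of 16 surface and secreted genes, 15 were lower, with Myct1 at -7.55 ± 0.95 and Sparcl1 at -7.09 ± 1.28, and 1 higher, S1pr1 at 2.63 ± 0.55, the sphingosine phosphate receptor that T cells use to leave tissue. Of 14 transcription factors, 10 were lower, with the lung vessel factor Foxf1 at -6.01 ± 1.00, and 3 were higher, Ets1 at 3.52 ± 0.66, Klf2 at 2.11 ± 0.77 and Fli1 at 1.41 ± 0.52, which T cells also express. S1pr1, Klf2, Ets1 and Fli1 were picked out after their values were seen. Medians of the 4 lists were -3.55, -3.27, -4.33 and -3.91, against 0.09 for all genes tested. Only 8, 7, 10 and 8 genes of these lists passed the filter in the fit of sorted arrays. The others passed it through whole samples alone, so the filter could favour their calls as lower in lung Trm. In the same comparison 7 of 11 lung epithelial genes and 6 of 7 pericyte and smooth muscle genes were lower and 12 of 13 T cell genes higher. Over all genes tested, 25.8% were called lower and 15.7% higher.

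Liver Trm against whole liver gave another picture. Car4 was higher by 5.09 ± 0.80 (SE, adjusted p = 5.78e-06), all 5 liver Trm arrays above all 3 whole liver arrays, and it was 1 of 8 genes called, where 32.3% of all genes tested were called in either direction. The other 7 were not called. Ptprb differed by -0.23 ± 1.05, Cdh5 by -0.50 ± 0.73, Tie1 by 0.06 ± 0.48, Kdr by 0.37 ± 0.55, Vwf by -1.20 ± 1.37, Egfl7 by -1.29 ± 1.09 and Cldn5 by -1.30 ± 0.79. Probes never above background had a median difference of 0.63 here, and Cdh5 was above background on 0 of 5 liver Trm arrays and 3 of 3 whole liver arrays. In the wider endothelial lists, 2 of 12 growth factor genes, 2 of 12 junction genes, 3 of 14 transcription factors and 1 of 16 surface genes were lower than in whole liver, and 0, 0, 4 and 1 were higher. Over all genes tested, 23.7% were called lower and 8.53% higher. Hepatocyte genes were lower in the sorted cells, 9 of 15 with a median of -2.99, whereas of 6 sinusoidal endothelial genes 1 was lower, with a median of -0.63 against -0.33 for all genes tested. In intestine Trm against whole intestine, 0 of 8 genes were called, where 31.8% of all genes tested were, with differences of -1.21 (Vwf) to 0.80 (Tie1) and SE of 0.46 to 1.33. Probes never above background had a median difference of 0.96. Of the same 4 lists, 0 of 12, 0 of 12, 3 of 14 and 3 of 16 genes were lower than in whole intestine and 1, 0, 4 and 2 were higher, and 3 of 6 sinusoidal genes were lower. Over all genes tested, 20.1% were called lower and 11.7% higher. All 14 enterocyte genes were lower there, with a median of -6.28. A difference that misses the threshold does not show equal levels.

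The difference between organs was tested directly, as the Trm minus whole organ difference of lung less that of another organ. Against liver, 3 of 8 genes had a more negative difference in lung, where 16.0% of all genes tested were called in either direction: Cdh5 by -3.73 ± 1.01 (SE, adjusted p = 0.00898), Ptprb by -4.92 ± 1.46 (adjusted p = 0.0176) and Car4 by -6.78 ± 1.11 (adjusted p = 3.71e-05). Tie1 (adjusted p = 0.0508) and Cldn5 (adjusted p = 0.0658) missed the threshold, and the count rose to 5 without lung Trm 1. Ptprb lost its call without the arrays that stood apart (adjusted p = 0.055). For Car4, lung Trm against whole lung was -1.69 ± 0.77 and not called, whereas liver Trm was above whole liver by 5.09 ± 0.80. With the second Car4 probe, the lung against liver term was -0.38 (limma, adjusted p = 0.790). Against intestine, 4 of 8 were called, where 22.1% were: Cdh5 by -4.57 ± 1.00 (adjusted p = 0.000801), Cldn5 by -4.57 ± 1.07 (adjusted p = 0.00174), Tie1 by -2.61 ± 0.66 (adjusted p = 0.00333) and Ptprb by -5.81 ± 1.44 (adjusted p = 0.00297). Whole lung is high for these genes and enters both tests, so they share those 3 arrays. Tie1 passed the filter through whole lung alone, which favoured its call. Between intestine and liver, Car4 was the 1 of 8 called, at -5.15 ± 1.11 (adjusted p = 0.000924), where 14.5% of all genes tested were. With the second Car4 probe this term was -0.89 (limma, adjusted p = 0.487).

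Blood Tem against PBMC had 4 of 8 genes called lower and 1 higher, where 11.3% and 43.9% of all genes tested were. Egfl7 was lower by 3.26 ± 1.05 (SE, adjusted p = 0.00898), Vwf by 3.61 ± 1.33 (adjusted p = 0.0206), Cldn5 by 2.30 ± 0.76 (adjusted p = 0.0103; at least 2.18-fold) and Tie1 by 1.23 ± 0.46 (adjusted p = 0.0234, with no array of either group above background). Probes never above background had a median difference of -0.74 in this comparison, and without Tie1 the count of lower genes is 3. Car4 was higher by 2.77 ± 0.77 (adjusted p = 0.00293). These calls leaned on few arrays: the count fell to 2 without PBMC 1, to 3 without Tem 3 and to 1 without the arrays that stood apart, and Vwf lost its call without PBMC 2 (adjusted p = 0.149) or PBMC 3 (adjusted p = 0.140). Of 8 platelet and megakaryocyte genes tested, 5 were lower in Tem.

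In the comparisons with Tem, called genes of the wider endothelial lists were fewer. In liver Trm these included Ramp2 at 3.80 ± 1.05, Flt1 at 2.85 ± 1.01 and the lipoprotein lipase anchor Gpihbp1 at 3.86 ± 0.66, with 4 of 8 growth factor genes, 2 of 7 junction genes and 5 of 10 surface genes higher and none lower in these 3 lists, where 15.0% of all genes tested were called higher. Of 8 transcription factors, 2 were higher and 2 lower, Fli1 and Ets1. In intestine Trm, Plvap, the diaphragm protein of fenestrated capillaries, was higher by 4.06 ± 0.92, and 2 of 8, 2 of 7 and 7 of 10 genes of the same lists were higher, where 8.10% of all genes tested were, with Icam2 and S1pr1 the 2 lower. Of 8 transcription factors, 3 were higher and none lower. In lung Trm, Acvrl1 at 3.36 ± 0.92 was the only one of these 3 lists called, and 1 of 8 transcription factors was higher. The factor Klf4 was higher than Tem in lung Trm (4.86 ± 0.52), intestine Trm (4.32 ± 0.52) and liver Trm (2.50 ± 0.55), and the 3 comparisons share the Tem arrays.

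Across the 8 group means, the profile of Cdh5 correlated with that of Ptprb at r = 0.943 and of Cldn5 at r = 0.932, with Kdr probe 1 at -0.420 and with Car4 at 0.292 (Pearson, 8 groups, described without a test since all means share the high whole lung group). The 5 other genes most like Cdh5 by this measure were Adgrf5 (0.991), Hrct1 (0.989), Adcy4 (0.989), Sox18 (0.987) and Gja4 (0.984). Those most like Car4 were Fosl2 (0.952), Tnfrsf10b (0.945), P2ry14 (0.925), Slc25a36 (0.906) and Ifrd1 (0.886). Pecam1 had no such list, since its probe did not pass the filter.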

How the data were processed

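Per the file headers, the scanner files give an intensity for each spot from which Feature Extraction 11.0.1.1 had subtracted background (10.7 and Partek per the submitters' processing notes). The authors also deposited a log2 table, which came out as quantile-normalized intensities (largest median absolute difference 0.000527). Each array held 43020 spots for 39429 probes; accessions were looked up in a RefSeq table (GRCm38.p6), which named 27508 probes. Per the labels, 300 pg of RNA (integrity over 8) went through 2 amplification rounds, which can widen the spread of dim genes.

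Log2 intensities were scaled to each array's 75th percentile over probes above background on all arrays of a fit (4045 probes for the 23 sorted arrays, 1342 for all 35). Probes needed 3 or more arrays above background within a group, and the brightest such probe stood for its gene. Fits used limma (version 3.58.1, R 4.3.3) on 8622 and 10636 genes, with Benjamini-Hochberg adjustment over all of them and two-sided p-values; the script was tested on simulated data. A lower bound of a fold uses, on each dimmer array, the lowest signal above background or the probe's own signal if higher. Named list genes are the 4 largest called differences of a list. The genes and lists were chosen with earlier results of these data known. The number of arrays limits the precision. Alternatives were quantile normalization, a percentile over all probes, normexp (offset 50; on the median spot and background columns), the deposited values, no filter, the mean of a gene's probes, the 2 groups alone, a replicate or slide block, and each array left out; leaving out the 4 arrays that stood apart and the exchange of probes were added after the data were seen.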

Additional observations from a re-analysis of the deposited data

Results flagged for a closer look

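Combinations of probe and group were searched where the group had 4 to 10 arrays and at least 1 was above background. Of these 33, 5 held an array farther from the others than Dixon's limit, where chance gives about 1 in 20. Liver Trm 1 was the lowest of its group for Cldn5 (-7.81, not above background) and for Egfl7 (-4.45). Tem 3 was the lowest of its group for Egfl7 (-10.11) and for the second Car4 probe (-9.19), not above background for either. Intestine Trm 6 was the highest of its group for Kdr probe 1 (-2.26).

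The change from whole organ to Trm differed between organs for 8 combinations of gene and organ pair, by the limma interaction term. Lung against liver gave Cdh5 at -3.73 (adjusted p = 0.00898), Ptprb at -4.92 (adjusted p = 0.0176) and Car4 at -6.78 (adjusted p = 3.71e-05). Lung against intestine gave Cdh5 at -4.57 (adjusted p = 0.000801), Cldn5 at -4.57 (adjusted p = 0.00174), Tie1 at -2.61 (adjusted p = 0.00333) and Ptprb at -5.81 (adjusted p = 0.00297). Tie1 had passed the filter through whole lung alone. Intestine against liver gave Car4 at -5.15 (adjusted p = 0.000924).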

How the results depend on the processing

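Over 51 called differences of single genes, 943 alternative values were computed: 832 kept direction and call, 108 kept the direction and lost the call, and 3 reversed. The 3 reversals came with the second Car4 probe: -0.33 for whole lung against whole liver, -0.28 for liver Trm against whole liver and -0.87 for Tem against PBMC. The cause of the changed counts was not tested. The exchange of probes and the fit without the 4 arrays that stood apart were chosen after seeing the data.

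The number of genes called changed as follows. For liver Trm against Tem it went from 5 to 3 without the 4 arrays. For lung Trm against Tem it went from 1 to 2 with the percentile over all probes, and to 0 with normexp or without the 4 arrays. For intestine Trm against Tem it went from 4 to 2 with quantile normalization, normexp, the deposited values, no filter, the 2 groups alone, the replicate block or without the 4 arrays. For lung against liver Trm it went from 1 to 2 with quantile normalization, normexp, the deposited values, the mean of probes or the 2 groups alone, to 4 with no filter, and to 0 with the replicate block or without the 4 arrays. For lung against intestine Trm it went from 1 to 2 with the mean of probes and to 0 with the 2 groups alone. For whole liver against PBMC it went from 3 to 1 with quantile normalization, the percentile over all probes, the deposited values or no filter. For whole intestine against PBMC it went from 1 to 2 with quantile normalization, the percentile over all probes, normexp or the deposited values, and to 0 with the second probe. For whole intestine against whole liver it went from 2 to 1 with quantile normalization, the percentile over all probes, the deposited values, the second probe or without the 4 arrays, to 4 with normexp, and to 3 with no filter or the replicate block. The second probe took liver Trm against whole liver from 1 to 0, and intestine against liver in the test between organs from 1 to 0. Tem against PBMC went from 5 to 1 without the 4 arrays, and lung against liver in the test between organs from 3 to 6 with normexp.

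Leaving out 1 array at a time gave 0 to 2 genes for lung Trm against Tem, 2 to 4 for intestine Trm against Tem, 0 to 2 for lung against liver Trm and for lung against intestine Trm, and 0 to 1 for liver against intestine Trm. It gave 1 to 3 for whole liver against PBMC, 2 to 3 for whole lung against whole liver, 1 to 2 for whole intestine against whole liver, 2 to 5 for Tem against PBMC and 3 to 5 for lung against liver in the test between organs. The 6 genes lower in lung Trm than in whole lung kept their calls in each of these fits.

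Samples with the same replicate number shared a slide among sorted or among whole samples, but their deviations did not go together throughout (median correlation per pair of groups from -0.30 in liver and intestine Trm to 0.21 in whole intestine and PBMC), so the numbers were not taken as pairs. With the replicate block, Car4 in lung against liver Trm was at -2.10 (limma, adjusted p = 0.0843). Dim genes are limited by signal over background.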
